A study of Mus musculus with 4 samples.

Results

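The subject is a set of 589 small genomic regions, out of 1734 in all, in which integration of an HIV-based vector was recorded with both wild-type TAF3 fusions and with mutant full-length TAF3, and not with the mutant PHD domain alone. The regions were chosen by these site counts. Sites of the wild-type PHD domain were joined into a cluster where gaps were at most 1000 bp. Clusters of at least 4 sites were kept and extended by 500 bp on each side. Those with at least 1 site of wild-type full-length TAF3, at least 1 of mutant full-length TAF3 and none of the mutant PHD domain are called Full_Mut-retained clusters here. The name stands for the counts of these lists and not for a measured change in binding.

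All 4 libraries came from C57BL/6 mouse embryonic fibroblasts without Psip1 (Psip1 -/-), the gene of LEDGF/p75, which otherwise guides HIV integrase to chromatin. Cells were transfected with a TAF3 fusion to the integrase-binding domain of LEDGF, sorted for GFP 24 to 36 h later, infected with a VSV-G pseudotyped luciferase vector and harvested 48 to 72 h after infection, so every library rests on a transiently introduced fusion protein in a knockout line. The groups, with 1 library each, were full-length TAF3 with the M880A substitution (Full_Mut), the PHD domain alone with M880A (PHD_Mut), full-length wild-type TAF3 (Full_WT) and the wild-type PHD domain alone (PHD_WT). They held 39292, 34888, 22486 and 25363 distinct positions in that order, with medians of 24, 23, 41 and 29 reads per position and at least 2 reads at each. Full_WT had no other library on its flow cell, unlike the other 3, which ran together, so flow cell and construct cannot be told apart wherever Full_WT is set against another library. With 1 library a group, differences have no replicate check and carry no p-value. Intervals are 95% intervals for counting error only. Those of site counts treat sites as independent and leave out the spread between clusters, so they can be too narrow where sites clump. Positions were counted in place of reads, since PCR copies of a junction without molecular identifiers are not separate molecules.

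TAF3 is a subunit of TFIID, the general transcription factor that recognises core promoters and starts assembly of the preinitiation complex. Its PHD finger binds H3K4me3, the trimethylated lysine of histone H3 found at active promoters, and M880A lies in that finger and weakens this recognition. The full-length protein has other means of reaching promoters: its histone-fold domain pairs with TAF10 inside TFIID, and other TFIID subunits contact acetylated histones and core promoter DNA. The isolated PHD domain lacks these contacts, and for this reason regions with the full-length mutant and without the mutant PHD domain were described. What the rest of the protein contributes there was not tested. Absence of the mutant PHD domain says little about a single cluster at this depth, as given below.

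Of the 1734 PHD_WT clusters, 1412 (81.4%, Wilson interval 79.5 to 83.2) held a Full_WT site, 1149 (66.3%, 64.0 to 68.5) a Full_Mut site and 601 (34.7%, 32.5 to 36.9) a PHD_Mut site. The Full_Mut-retained clusters were 34.0% (31.8 to 36.2) of all clusters and 41.7% (39.2 to 44.3) of those with a Full_WT site. The other clusters with a Full_WT site were 294 with neither mutant (mutant-free clusters), 407 with both mutants (both-mutant clusters) and 122 with PHD_Mut and no Full_Mut site. The first 2 of these served for comparison. The mutant-free clusters differ from the retained ones by rule only in the Full_Mut count, and the both-mutant clusters only in the PHD_Mut count.

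Together the 589 clusters covered 1.32 Mb, which is 0.0514% of the 2570 Mb between the outermost sites. They held 1510 Full_Mut sites (3.84% of that list, 3.66 to 4.04), 0 PHD_Mut sites, 1966 Full_WT sites (8.74%, 8.38 to 9.12) and 3908 PHD_WT sites (15.4%, 15.0 to 15.9). The rule asked for at least 4 PHD_WT sites and at least 1 of each full-length library, so the order of these shares is not read as a result. The padded width had a median of 2142 bp, quartiles of 1741 and 2598 bp and a range of 1106 to 5920 bp. Mutant-free clusters had a median width of 1909.5 bp and both-mutant clusters of 2603 bp, so counts below are also given per kb.

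Most of the retained clusters rested on few mutant sites. A single Full_Mut site was present in 247 of them (41.9%), 2 sites in 142, 3 in 63, 4 or 5 in 87, and 6 to 9 in 39, and 11 clusters had between 10 and 19. Full_WT counts reached higher: 159 clusters (27.0%) had a single Full_WT site and 20 had 10 or more, up to 22. PHD_WT counts ran between 4 and 25 with a median of 6. Full_Mut sites were fewer than Full_WT sites in 287 clusters (48.7%), equal in 160 and more in 142. The Full_Mut list was the longer one. The rule asked for a site of each library, and the libraries came from different flow cells. No such split is given for all 1734 clusters, so this one is not read as a result. As a share of its own list, Full_Mut over Full_WT was 0.440 (0.411 to 0.470) inside the retained clusters and 0.382 (0.364 to 0.399) over all 1734 clusters. Not all of the 1734 had to hold a Full_Mut site, so the rule sets part of this difference. Both-mutant clusters, which also had to hold one, gave 0.438 (0.407 to 0.470).

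**Figure D1:**
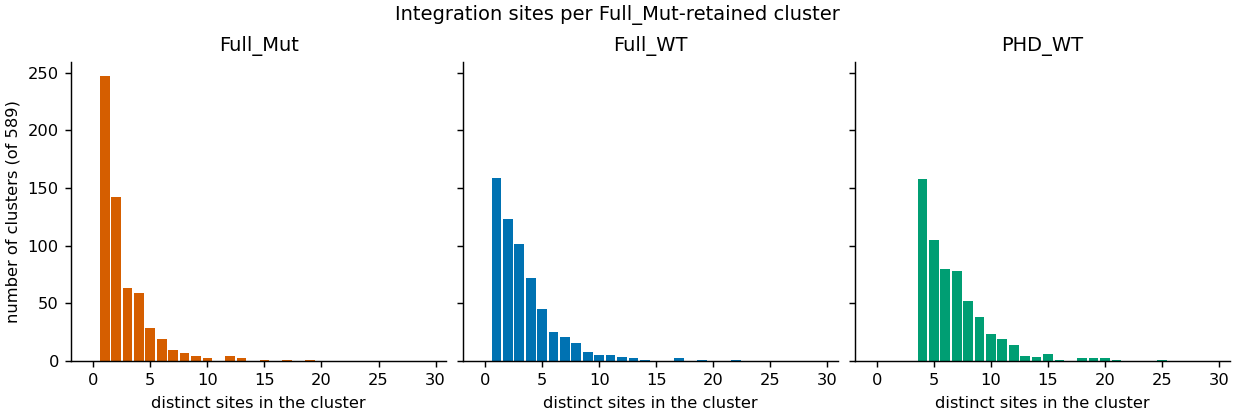
The bars give how many of the 589 Full_Mut-retained clusters (vertical axis) hold a given number of distinct sites (horizontal axis) of Full_Mut, Full_WT and PHD_WT. The Full_Mut and Full_WT bars are highest at 1 site, with 247 and 159 clusters, and the PHD_WT bars begin at the 4 sites that the rule requires.

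The rule fixed part of each contrast between libraries, so the following counts describe the clusters and nothing is read from them. A 2-fold difference in the share of sites, with 0.5 added to each count, was used. Full_Mut was lower than Full_WT by that much in 285 retained clusters (48.4%), against 53.7% of all clusters, and higher in 4 (0.679%), against 3.69%. Full_WT was lower than PHD_WT in 256 (43.5%), against 57.4% of all clusters, and higher in 4 (0.679%), against 0.404%. Full_Mut was higher than PHD_Mut in all 589, which follows from the rule, against 47.5% of all clusters. It was lower in 0, against 10.2% of all clusters.

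A count of 0 PHD_Mut sites says little about a single cluster at this depth. A count of 0 allows up to 3 sites, and the flanks of the same clusters, from the padded edge to 5 kb outside it, carried 0.0694 PHD_Mut sites per kb. At that rate a retained cluster would hold 0.155 PHD_Mut sites on average and all 589 together 91.6, and the joint count of 0 was set by the rule. At the mean rate of all 1734 clusters, 0.256 per kb, the average would be 0.574 sites. Of all clusters, 1133 (65.3%) had no PHD_Mut site, and loss from any 1 cluster was not detectable at this depth. The values on each side of each limit of the rule were as follows. The retained clusters had 1.14 Full_Mut, 1.49 Full_WT and 2.96 PHD_WT sites per kb, beside 1.15, 1.52 and 3.04 in the 248 clusters that met every other condition and had 1 PHD_Mut site. The 247 retained clusters with 1 Full_Mut site had 1.20 Full_WT and 2.77 PHD_WT sites per kb, and the 294 mutant-free clusters, with none, had 1.02 and 2.78. There were 158 retained clusters with 4 PHD_WT sites, and 185 chains of 3 PHD_WT sites met the remaining conditions. Of the clusters at the Full_WT limit, 159 with 1 site were retained and 115 with none were left out.

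The clusters with the most Full_Mut sites show what the set looks like where the counts are high (mm9 coordinates, padded ends). On chromosome 19, positions 46575122 to 46579473 held 19 Full_Mut, 0 PHD_Mut, 9 Full_WT and 11 PHD_WT sites, the highest Full_Mut count of the set. The Full_Mut sites there spread over nearly the whole cluster, with 8 on the plus strand and 11 on the minus strand, and 11 of them had at least 10 reads. The nearest PHD_Mut site lay 15607 bp from the median PHD_WT position.

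On chromosome 11, positions 120094144 to 120099697 held 17 Full_Mut, 0 PHD_Mut, 17 Full_WT and 25 PHD_WT sites, and it is the only cluster besides 1 on chromosome 17 that is among the leaders for all 3 libraries. That other cluster, chromosome 17 from 36002740 to 36007603, held 13 Full_Mut, 0 PHD_Mut, 22 Full_WT and 19 PHD_WT sites. Its Full_Mut sites had few reads, with a median of 5, and 6 of the 13 had at least 10. On chromosome 14, positions 55192170 to 55197166 held 15 Full_Mut, 0 PHD_Mut, 17 Full_WT and 15 PHD_WT sites. In these 3 clusters the full-length mutant and the full-length wild type were both recorded many times over about 5 kb.

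Narrower clusters also reached high counts. On chromosome 10, positions 127101744 to 127103996 held 13 Full_Mut, 0 PHD_Mut, 11 Full_WT and 18 PHD_WT sites in 2253 bp, with 11 more Full_Mut and 2 PHD_Mut sites in the flanks up to 5 kb. The nearest of these PHD_Mut sites lay 1260 bp from the cluster's median position, so the absence of PHD_Mut there depends on where the cluster ends. On chromosome 5, positions 141083305 to 141085902 held 12 Full_Mut, 0 PHD_Mut, 11 Full_WT and 10 PHD_WT sites. No PHD_Mut site lay within its 5 kb flanks, and the nearest was 97005 bp away.

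Chromosome 17 supplied 4 of the 10 clusters with the most Full_Mut sites. Positions 23811150 to 23814497 held 12 Full_Mut, 0 PHD_Mut, 19 Full_WT and 9 PHD_WT sites, with the nearest PHD_Mut site 32528 bp away. Positions 35186405 to 35189146 held 10 Full_Mut, 0 PHD_Mut, 11 Full_WT and 4 PHD_WT sites. This cluster only just met the minimum for PHD_WT, all 10 of its Full_Mut sites had at least 10 reads, and the nearest PHD_Mut site lay 1354 bp from its median position. Positions 34256382 to 34257862 held 12 Full_Mut, 0 PHD_Mut, 7 Full_WT and 5 PHD_WT sites within 1481 bp. A neighbouring cluster began 9 bp beyond its padded edge and held 4 PHD_Mut sites, so the limit between them was set by the 1000 bp gap. On chromosome 16, positions 65815652 to 65818750 completed the 10 with 12 Full_Mut, 0 PHD_Mut, 8 Full_WT and 16 PHD_WT sites.

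**Figure D2:**
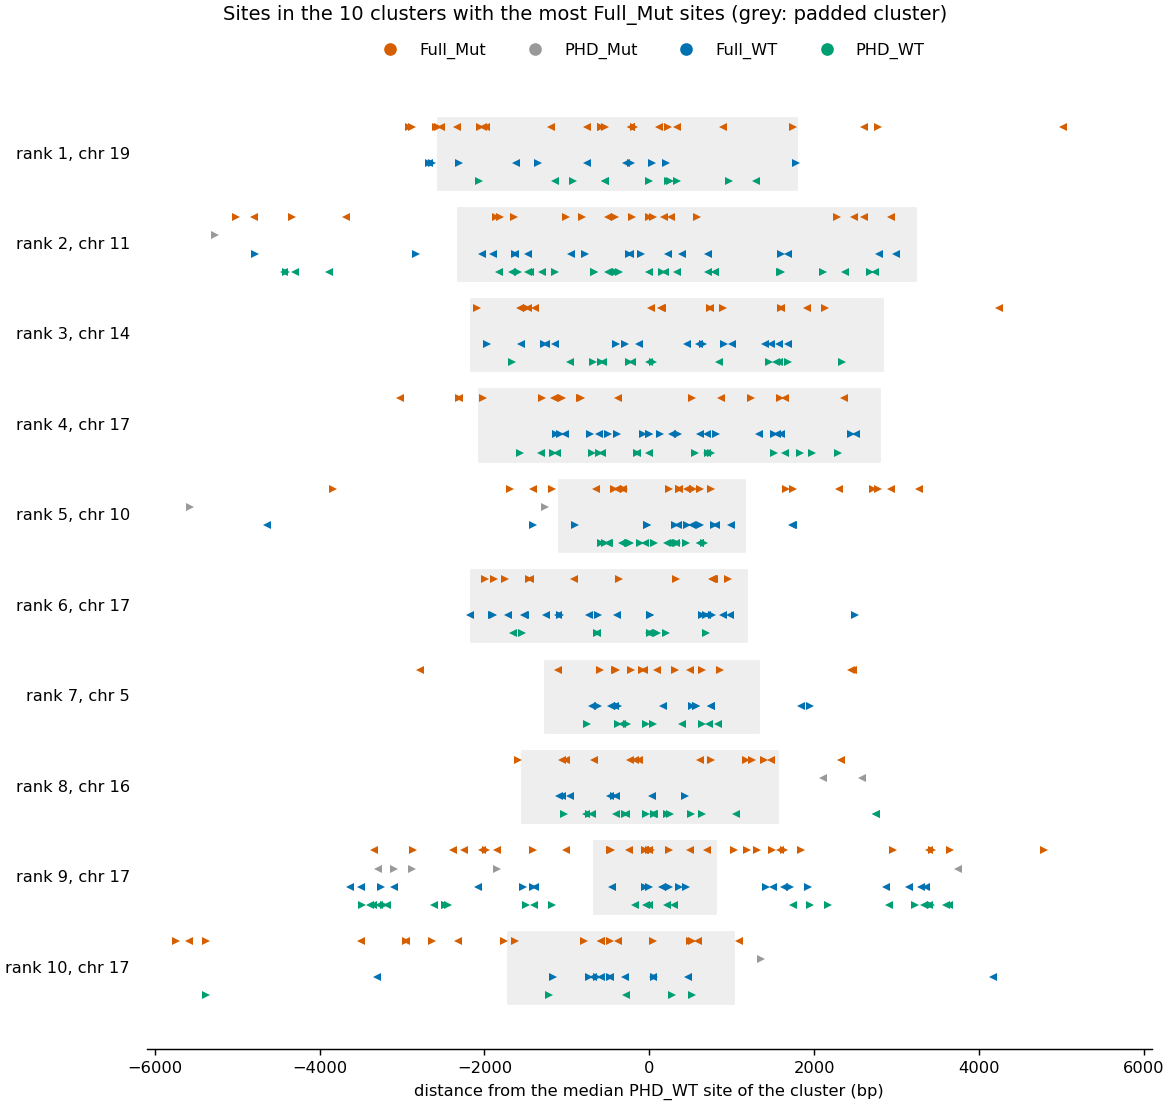
Each block is 1 of the 10 Full_Mut-retained clusters with the most Full_Mut sites, in rank order, and each arrowhead is a site placed by its distance in bp from the median PHD_WT position and pointing right for the plus strand. Rows run from Full_Mut through PHD_Mut and Full_WT to PHD_WT, and the grey box (the padded cluster) holds between 10 and 19 Full_Mut sites and no PHD_Mut site, while PHD_Mut sites appear outside the box in ranks 2, 5, 8, 9 and 10.

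Of the 5 clusters with the most Full_WT sites, 4 are among the 10 described above, as are 2 of the 5 with the most PHD_WT sites. The remaining leaders for either wild-type library held 2 or 3 Full_Mut sites. On chromosome 11, positions 95863817 to 95869736, the widest cluster of the set, held 2 Full_Mut, 0 PHD_Mut, 9 Full_WT and 21 PHD_WT sites. On chromosome X, positions 100675315 to 100679556 held 2 Full_Mut, 0 PHD_Mut, 7 Full_WT and 20 PHD_WT sites. On chromosome 2, positions 84488085 to 84491291 held 2 Full_Mut, 0 PHD_Mut, 1 Full_WT and 20 PHD_WT sites, so both full-length libraries were close to the minimum at a place where the PHD domain was recorded 20 times. On chromosome 11, positions 102465868 to 102469088 held 3 Full_Mut, 0 PHD_Mut, 14 Full_WT and 12 PHD_WT sites.

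Within the retained clusters, sites of the full-length mutant lay around the same centre as those of the wild-type proteins and were somewhat more spread. The median distance from the median PHD_WT position was 401 bp for Full_Mut (quartiles 188 and 687), 360 bp for Full_WT (172 and 658) and 270 bp for the PHD_WT sites themselves, which define the centre. Within 500 bp lay 59.7% of the Full_Mut sites (57.2 to 62.2) and 62.5% of the Full_WT sites (60.4 to 64.6), intervals that overlap. The 500 bp padding, where by construction no PHD_WT site lies, held 29.1% of the Full_Mut sites (26.9 to 31.5) and 27.6% of the Full_WT sites (25.7 to 29.6). On the left of the centre lay 51.0% of the Full_Mut sites (48.5 to 53.5) and 49.2% of the Full_WT sites (47.0 to 51.4).

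Neither strand nor read number, which the rule did not use, set the Full_Mut sites of these clusters apart. On the plus strand were 49.8% of the Full_Mut sites (47.3 to 52.3), 49.9% of the Full_WT sites (47.7 to 52.1) and 50.7% of the PHD_WT sites (49.1 to 52.3). Of 342 clusters with at least 2 Full_Mut sites, 245 (71.6%) had them on both strands, as had 324 of 430 (75.3%) for Full_WT. The median number of reads was 24 for Full_Mut sites inside the retained clusters and 24 for those outside all clusters. It was 44 inside and 40 outside for Full_WT, and 34 inside and 26 outside for PHD_WT.

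Few positions in the retained clusters recurred exactly between libraries. Full_Mut and PHD_WT, which shared a flow cell, had 31 identical positions there (2.05% of the Full_Mut and 0.793% of the PHD_WT sites). Full_Mut and Full_WT, which did not, had 17 (1.13% and 0.865%). Full_WT and PHD_WT, also from different flow cells, had the most, 53 (2.70% and 1.36%). With all positions found in more than 1 library left out, 582 clusters met the rule.

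The Full_WT density differed between retained and mutant-free clusters, which both had to hold a Full_WT site. The retained clusters had 1.49 Full_WT sites per kb and the mutant-free clusters 1.02, a ratio of 1.47 (1.34 to 1.61). PHD_WT differed by little, with 2.96 and 2.78 sites per kb and a ratio of 1.06 (1.01 to 1.13), and 0.949 (0.898 to 1.00) without padding. Full_WT density thus differed with the presence of Full_Mut across clusters with a similar PHD_WT density.

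This held at each level of PHD_WT. Among clusters with 4 PHD_WT sites, the 158 retained ones had 1.25 Full_WT sites per kb and the 111 mutant-free ones 1.02, a ratio of 1.23 (1.03 to 1.46), with nearly equal median widths of 1740.5 and 1747 bp. The ratio was 1.24 (1.01 to 1.52) at 5 sites, 1.35 (1.05 to 1.76) at 6, 1.67 (1.35 to 2.09) at 7 to 9 and 1.71 (1.32 to 2.26) at 10 or more, the last with only 19 mutant-free clusters. Full_WT density rose with the PHD_WT count in the retained clusters, up to 1.88 per kb at 10 or more, and lay between 0.956 and 1.09 per kb at all levels in the mutant-free clusters. Each cluster of both sets had to hold at least 1 Full_WT site, so these densities are partly fixed by the rule. At 4 PHD_WT sites the 111 mutant-free clusters held 205 Full_WT sites in all. The PHD_WT ratios at these levels lay between 0.940 and 1.02. The levels fix the PHD_WT count at 4, 5 and 6 sites and bound it at 7 to 9. These ratios therefore largely reflect cluster width and cannot test a difference in PHD_WT.

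**Figure D3:**
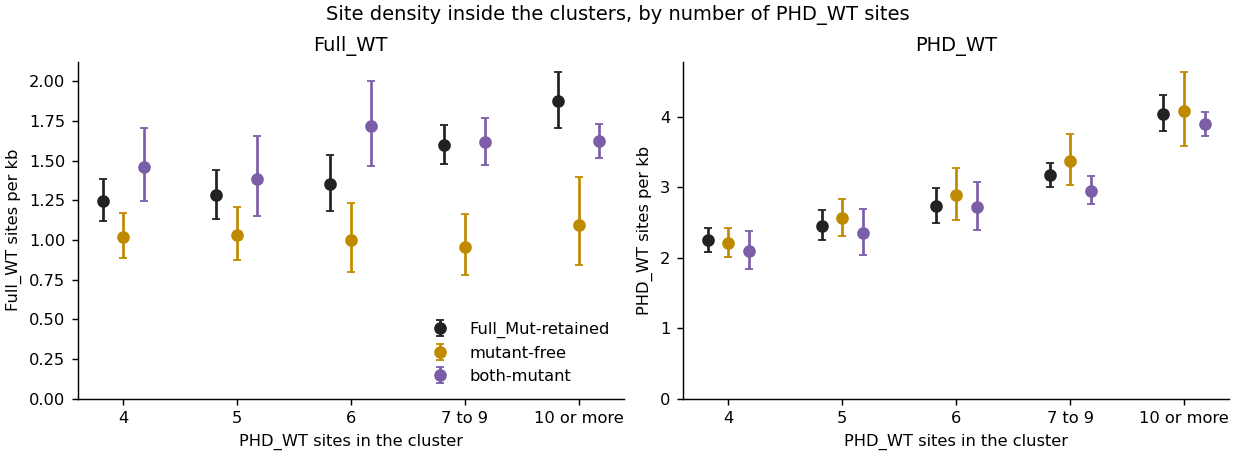
Points give Full_WT (left) and PHD_WT (right) sites per kb inside Full_Mut-retained, mutant-free and both-mutant clusters, by the number of PHD_WT sites in the cluster, and bars are exact 95% Poisson limits for counting error. The Full_WT points of the retained clusters lie above those of the mutant-free clusters at each level (1.25 and 1.02 at 4 sites, 1.88 and 1.09 at 10 or more). The PHD_WT points lie together, but the levels fix or bound the PHD_WT count, so they test no difference in PHD_WT.

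Set against both-mutant clusters, the retained ones had slightly lower densities, and for Full_Mut the interval held 1. Full_Mut had 1.14 sites per kb in retained and 1.22 in both-mutant clusters, a ratio of 0.938 (0.871 to 1.01). Full_WT had 1.49 and 1.59 (0.934, 0.876 to 0.997) and PHD_WT 2.96 and 3.25 (0.911, 0.871 to 0.954). The retained clusters were narrower and had a median of 6 PHD_WT sites, against 8 in both-mutant clusters. At equal PHD_WT counts the intervals of the Full_Mut ratio held 1 at all 5 levels, and the ratio had no constant direction. It was lowest at 4 sites, with 0.904 (0.735 to 1.12), and highest at 6 sites, with 1.13 (0.879 to 1.45). A difference in Full_Mut density of more than about 1.45-fold either way lay outside each of these intervals. The Full_WT ratio also lay on both sides of 1, with 0.786 (0.641 to 0.965) at 6 sites and 1.16 (1.03 to 1.30) at 10 or more.

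The share of clusters with a PHD_Mut site varied more with the PHD_WT count than with the presence of Full_Mut. Of the clusters with Full_WT and Full_Mut sites, 40.9% (37.9 to 43.9) also held PHD_Mut, against 29.3% (25.2 to 33.9) of those with Full_WT and no Full_Mut site. At 4 PHD_WT sites the shares were 27.2% (21.7 to 33.5) and 24.5% (18.2 to 32.0), at 5 sites 28.1% and 25.2%, at 6 sites 35.0% and 33.9%, and at 7 to 9 sites 39.4% (33.8 to 45.2) and 35.2% (25.1 to 46.8). Only at 10 or more PHD_WT sites did the intervals separate, with 66.5% (60.2 to 72.3) of 233 clusters with Full_Mut and 42.4% (27.2 to 59.2) of 33 without. The retained clusters accordingly were 30.9% of all clusters with 4 PHD_WT sites, 43.8% (38.9 to 48.7) of those with 7 to 9, and 28.5% (23.5 to 34.1) of those with 10 or more. Clusters also widened with the PHD_WT count. Median widths of retained, mutant-free and both-mutant clusters were 1740.5, 1747 and 1804 bp at 4 sites, and 2925, 2796 and 3212 bp at 10 or more. That last level runs from 10 to 31 sites, so neither count nor width is equal within it. The part of width in these shares was not tested.

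The contrast of the mutants inside the clusters was set by the rule, which did not use the sequence just outside them. In the first 2 kb outside, Full_Mut was recorded more often than PHD_Mut, around retained, mutant-free and both-mutant clusters alike. Sites were counted from the padded edge outward, leaving out other clusters, and where flanks of neighbouring clusters overlap a site counts for each, so intervals in flanks are somewhat too narrow. In the first 2 kb the retained clusters had 567 Full_Mut and 215 PHD_Mut sites, a ratio of shares of 2.34 (2.00 to 2.75). It was 1.20 (0.987 to 1.46) between 2 and 5 kb, 1.24 (1.11 to 1.38) between 5 and 20 kb and 1.22 (1.12 to 1.32) between 20 and 50 kb. Of the 4 ranges, the ratio was highest next to the cluster. The first 2 kb gave 1.59 (1.16 to 2.18) around mutant-free and 2.38 (2.00 to 2.84) around both-mutant clusters, so the retained clusters lay close to the both-mutant ones, and the interval of the mutant-free ones overlapped theirs. Between 5 and 20 kb the mutant-free clusters gave 0.823 (0.688 to 0.984), below the retained ones.

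**Figure D4:**
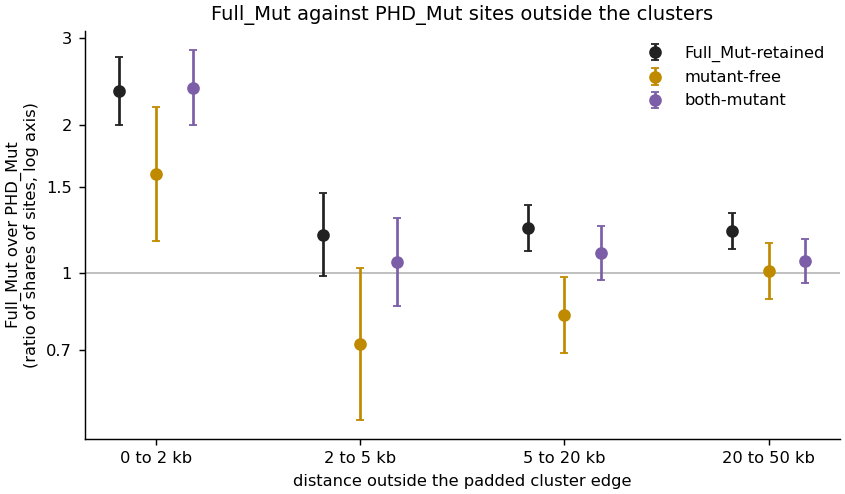
The vertical axis (log scale) is the share of the Full_Mut list over the share of the PHD_Mut list in 4 distance ranges outside the padded edge (horizontal axis), for Full_Mut-retained, mutant-free and both-mutant clusters, with exact conditional 95% intervals for counting error. The retained clusters lie at 2.34 in the first 2 kb and between 1.20 and 1.24 farther out, and the mutant-free clusters lie below them in each range.

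Against Full_WT, Full_Mut was lowest inside the cluster. The ratio of Full_Mut to Full_WT shares was 0.440 inside the retained clusters, 0.807 (0.709 to 0.920) in the first 2 kb outside, 1.00 (0.815 to 1.24) between 2 and 5 kb, 0.947 (0.847 to 1.06) between 5 and 20 kb and 0.811 (0.745 to 0.882) between 20 and 50 kb. Inside both-mutant clusters it was 0.438 (0.407 to 0.470), close to the retained clusters. These 2 libraries came from different flow cells, and the inside values are partly fixed by the rule.

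Regions around retained clusters were denser than those around mutant-free clusters in all 4 libraries, by unequal amounts. Within 5 kb they were less dense than those around both-mutant clusters, as given at the end of this paragraph. In the 5 kb flanks, Full_Mut had 0.142 sites per kb around retained and 0.0608 around mutant-free clusters, a ratio of 2.33 (1.98 to 2.75). The ratio was 1.45 (1.19 to 1.77) for PHD_Mut, 1.47 (1.24 to 1.74) for Full_WT and 1.25 (0.985 to 1.60) for PHD_WT, whose interval holds 1. Both sets lack PHD_Mut inside by rule, and its excess next to the retained clusters was not kept under each setting. It was 1.14 (0.969 to 1.34) when clusters were not padded, 1.22 (0.982 to 1.53) with 1000 bp added and 1.15 (0.993 to 1.33) between 5 and 20 kb. At equal PHD_WT counts it was 1.09 (0.768 to 1.54) at 4 sites, 1.28 (0.816 to 2.05) at 5, 1.84 (1.08 to 3.30) at 6, 1.51 (0.982 to 2.42) at 7 to 9 and 1.82 (0.868 to 4.42) at 10 or more. The intervals thus held 1 at 4 of the 5 levels. For Full_Mut the ratio at these levels lay between 1.58 (1.06 to 2.42) and 3.46 (2.21 to 5.68), and all 5 intervals lay above 1. The spread between clusters is not in these intervals. Set against both-mutant clusters, the 5 kb flanks of retained clusters gave 0.821 (0.741 to 0.909) for Full_Mut and 0.781 (0.675 to 0.903) for PHD_Mut. The ratio was 0.801 (0.663 to 0.968) for PHD_WT and 0.917 (0.806 to 1.05) for Full_WT, whose interval holds 1.

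The differences in density reached far from the clusters, in all 4 libraries. Between 20 and 50 kb the ratio of retained to mutant-free surroundings was 1.36 (1.23 to 1.51) for Full_Mut, 1.13 (1.01 to 1.27) for PHD_Mut, 1.37 (1.21 to 1.55) for Full_WT and 1.28 (1.10 to 1.49) for PHD_WT. For Full_WT the excess inside the clusters, 1.47, was no larger than that between 5 and 20 kb, 1.58 (1.32 to 1.90). The part of this regional density in the difference inside the clusters was not tested. Against both-mutant clusters, the lower density within 5 kb did not continue farther out. Between 20 and 50 kb that ratio was 1.13 (1.03 to 1.23) for Full_Mut and 1.24 (1.12 to 1.39) for Full_WT. It was 1.36 (1.18 to 1.57) for PHD_WT and 0.981 (0.889 to 1.08) for PHD_Mut, whose interval holds 1.

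**Figure D5:**
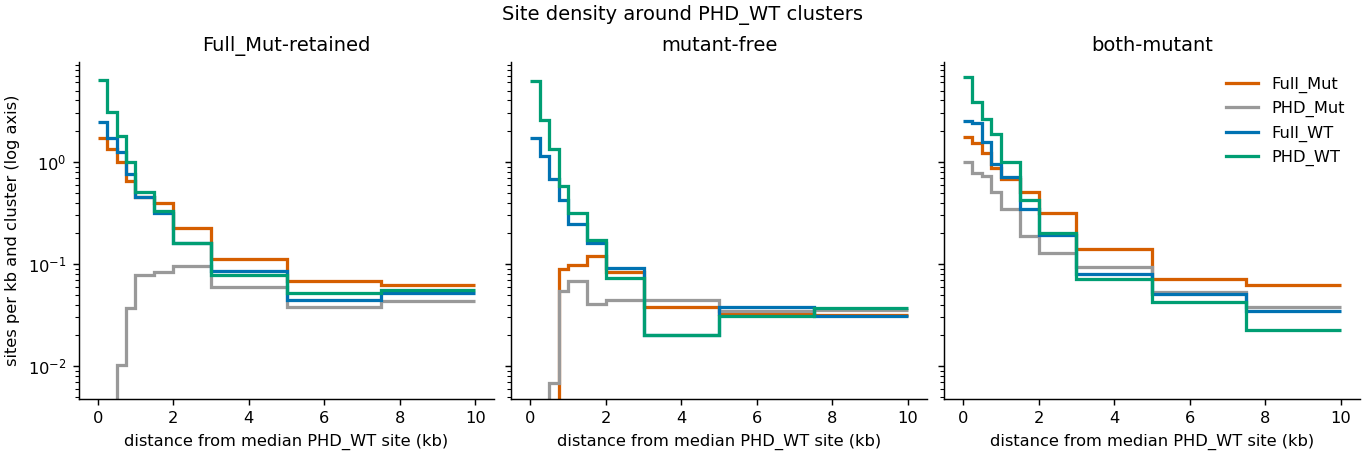
Lines give sites per kb and cluster (vertical axis, log scale) by distance from the median PHD_WT position (horizontal axis, kb) for Full_Mut-retained, mutant-free and both-mutant clusters, other clusters nearby included. In the retained clusters Full_Mut falls from 1.71 per kb in the first 250 bp to 0.0621 beyond 7.5 kb, and PHD_Mut, absent near the centre by rule, has its highest value of 0.0951 between 2 and 3 kb.

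PHD_Mut sites were found close to many retained clusters. Within 5 kb outside the edge, 268 of the 589 (45.5%, 41.5 to 49.5) had at least 1, against 109 of 294 mutant-free clusters (37.1%, 31.8 to 42.7) and 216 of 407 both-mutant clusters (53.1%, 48.2 to 57.9). The nearest PHD_Mut site lay at a median of 7.57 kb from the centre of a retained cluster (quartiles 2.53 and 18.8 kb), against 9.30 kb (3.86 and 22.2) for mutant-free clusters. Between 5 and 20 kb the shares of retained and mutant-free clusters with a PHD_Mut site were 59.3% (55.2 to 63.1) and 59.5% (53.8 to 65.0). The intervals of these sets overlap in both ranges, by little near the edge and almost wholly farther out.

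Among the retained clusters, those with more Full_Mut sites had a higher Full_WT density. Full_WT density was 1.20 per kb in the 247 clusters with 1 Full_Mut site, 1.39 with 2, 1.45 with 3, 1.72 with 4 or 5 and 2.50 in the 50 clusters with 6 or more. PHD_WT density moved less, between 2.77 and 3.27 per kb over the same steps. Full_Mut density in the 5 kb flanks was 0.104, 0.131, 0.153, 0.175 and 0.291 per kb in that order. PHD_Mut in the flanks showed no such steady order, with 0.0589, 0.0664, 0.0980, 0.0751 and 0.0852 per kb. The share of clusters with a PHD_Mut site in the flanks was 40.5% (34.6 to 46.7) with 1 Full_Mut site and 42.0% (29.4 to 55.8) with 6 or more. Wider clusters can hold more sites of any kind, and the median width was 1944 bp in the first and 2424 bp in the last of these steps.

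The retained clusters lay on all 20 chromosomes with sites, the 19 autosomes and X. Chromosome 11 held the most, 48 (8.15%), and chromosome 14 the fewest, 9 (1.53%). As a share of all clusters of a chromosome they were highest on chromosome 7, with 34 of 75 (45.3%, 34.6 to 56.6), and lowest on chromosome 14, with 9 of 47 (19.1%, 10.4 to 32.5). The interval of chromosome 14 lies below the 34.0% of the whole set. These chromosomes were picked as the ends of 20, and no adjustment was made for that.

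Many retained clusters had neighbours. The nearest other cluster lay at a median of 140 kb, against 258 kb for mutant-free and 198 kb for both-mutant clusters, and 43.0% (39.0 to 47.0), 31.6% (26.6 to 37.2) and 34.9% (30.4 to 39.6) had another cluster within 100 kb. The nearest other cluster was itself a retained one for 34.8% of them, against 34.0% of all clusters, so retained clusters were not seen to pair with their own kind. Another cluster lay within 2 kb of 36 retained clusters (6.11%), a share not given here for the other sets. In 9 of these (25%) the nearest one held PHD_Mut, against 34.7% of all clusters.

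In windows of 1 Mb, 421 windows held a retained cluster and 334 of them only 1. The fullest were chromosome 10 from 79000001 to 80000000 and chromosome 15 from 98000001 to 99000000, each with 8 retained among 12 clusters. In 2 windows of chromosome 7, from 52000001 to 53000000 and from 134000001 to 135000000, all 7 clusters were of the retained kind. They held 15 Full_Mut, 32 Full_WT and 46 PHD_WT sites in the first, and 18, 23 and 57 in the second. These windows were chosen after their values were seen.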

How the data were processed

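HIT-seq integration sites were mapped in 4 libraries. The authors deposited 1 list of sites per library as a BED file of 9 columns, described per the file headers as paired-end integration sites. The submitters' processing notes name mm9 as the build and list MACS 1.4.2 without saying what it did. An aligner and filters are not named in these sources. The score column that the authors deposited holds only 0 and was left out. The number after each read name was taken as reads, from its values only.

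The junction was the start plus 1 on the plus strand and the end on the minus strand (1-based), and lines with the same junction were collapsed. Groups came from the sample characteristics. Clusters were called on PHD_WT sites (gaps of at most 1000 bp, at least 4 sites, 500 bp added on each side). Flanks ran to 5 kb unless stated. Shares have Wilson intervals and ratios exact conditional binomial intervals, at 95%. The code was tested on simulated data. Clusters named in the text were the 10 with the most Full_Mut, the 5 with the most Full_WT and the 5 with the most PHD_WT sites, with ties broken by a wild-type count and then by position. Members, lists and measures were chosen with earlier results of these data known. Alternatives changed the gap, the minimum, the padding, the reads, near and shared positions, list length, chromosomes, the junction end and the flank, and 2 were added after seeing the data. The reference tables used another build (GRCm38), so genes and sequences at the clusters were not analysed here. Calculations used Python 3.11.15, numpy 2.4.6, scipy 1.17.1 and matplotlib 3.10.9.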

Additional observations from a re-analysis of the deposited data

How the results depend on the processing

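Values were recomputed under 17 alternatives for 10 results, 149 values in all, of which 120 stayed within the interval of the reported value (or, for the number of clusters, within 1.5 times of it). The 589 clusters became 326 with at least 6 PHD_WT sites and 318 with at least 10 reads, and between 431 and 774 elsewhere. The ratio of Full_WT density to mutant-free clusters (1.47) was 1.62 with at least 6 sites, 1.27 without padding and 1.78 with no Full_WT site required (chosen after seeing the data, as was the range of 5 to 20 kb). That of PHD_WT (1.06) turned to 0.987 with at least 6 sites and to 0.949 without padding. In flanks, PHD_Mut against mutant-free clusters (1.45) was 1.14 without padding and 1.15 at 5 to 20 kb, where the intervals held 1, as at 1.22 (0.982 to 1.53) with 1000 bp added. Against clusters with a PHD_Mut site it was 0.844 (0.735 to 0.970), and 0.730 without padding and 0.975 at 5 to 20 kb. The interval held 1 in the last, with at least 5 sites (0.886, up to 1.03) and 6 sites (0.924, up to 1.09), with thinned lists (0.868, up to 1.05) and with flanks of 2 kb (0.902, up to 1.09) and 20 kb (0.917, up to 1.003). Full_Mut (2.33) was 1.82 without padding, 1.87 with lists thinned to the smallest, 1.98 with flanks of 20 kb and 1.73 at 5 to 20 kb. The median distance of Full_Mut sites (401 bp) was 321 and 462.5 bp with gaps of 500 and 2000 bp, 427.5 and 461.5 bp with at least 5 and 6 sites, and 302 and 499 bp with 0 and 1000 bp added. The median width (2142 bp) was 1718 and 2475 bp with these gaps, 1991, 2299 and 2401.5 bp with at least 3, 5 and 6 sites, 1245 and 3112 bp with 0 and 1000 bp added, and 2202 bp with thinned lists. Cluster limits by construction set width and distance; for the other values the cause was not tested. No paired analysis was possible because each group has 1 library.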
